A study of Mus musculus with 18 samples.

Results

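The genes described here are 6 metabotropic glutamate receptor genes, Grm2, Grm3, Grm4, Grm5, Grm7 and Grm8, taken from the 48440 genes of a brain RNA sequencing table by their symbols. The mice were Diversity Outbred animals, an outbred stock in which each mouse carries its own mix of several founder genomes, and the study compared them for short-term memory. The 6 groups were high and low performers of each of 3 tissues, with 3 libraries per group. The tissues were MDTH and HPF, known here by those names alone, and the prefrontal cortex (PFC). No engineered allele or drug is named in the sources used here, and the test that ranked the mice and their ages are not given there. All 6 receptor genes had a mean of at least 10 normalized counts in every comparison and were tested in each.

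Metabotropic glutamate receptors are G protein-coupled receptors that slow glutamate signalling down to the pace of second messengers, beside the fast ion channels that glutamate also opens. Grm5 encodes a group I receptor, which couples to Gq, phospholipase C and calcium release and sits mainly at the rim of postsynaptic sites. Grm2 and Grm3 encode the group II receptors and Grm4, Grm7 and Grm8 belong to group III. Both of these groups couple to Gi/o, lower cAMP and, at axon terminals, curb transmitter release. Grm3 is also expressed by astrocytes, and Grm7 sits in the active zone itself, where it responds only to high glutamate. Thalamic neurons that project to the cortex are known as a site of Grm4 and Grm7 expression.

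The promoters of Grm3 and Grm7 are printed because these genes differed between high and low performers in opposite directions in MDTH. They are RefSeq sequences of mouse build GRCm38.p6, the 250 bases before the annotated start, 5′ to 3′ on the gene's strand, with the GC box GGGCGG in capitals. Of the 6 genes, Grm2, Grm3, Grm7 and Grm8 were matched by symbol, and Grm4 and Grm5 are named only. Grm7 had 2 listed starts and Grm8 had 3, and only the first listed start of each gene was used.
Grm3, chr5:9725353-9725602, minus strand: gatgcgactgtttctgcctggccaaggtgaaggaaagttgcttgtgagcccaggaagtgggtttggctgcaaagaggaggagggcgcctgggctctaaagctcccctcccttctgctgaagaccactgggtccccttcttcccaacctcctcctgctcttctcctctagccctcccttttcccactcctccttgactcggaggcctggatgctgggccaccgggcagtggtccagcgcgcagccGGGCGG
Grm7, chr6:110645262-110645511, plus strand: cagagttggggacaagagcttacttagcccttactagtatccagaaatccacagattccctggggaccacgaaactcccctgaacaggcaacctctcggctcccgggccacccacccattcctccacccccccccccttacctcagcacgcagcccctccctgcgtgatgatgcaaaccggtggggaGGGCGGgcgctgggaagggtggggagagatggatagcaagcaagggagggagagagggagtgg
Both held 1 GC box, searched on both strands, as did the promoter of Grm8, and that of Grm2 held 3. Of 27025 promoters of the same length, 32.9% held at least 1. The cAMP response element, spelled TGACGTCA, was in none of the 4 windows and in 1.62% of all promoters. The E-box, spelled CANNTG, was likewise in none of the 4, while 66.0% of all promoters held it. The same was true of the TATA box, spelled TATAAA, which 13.0% of all promoters held. No window held a second motif beside the GC box, so none overlapped. Grm3 and Grm7 had 8 CG dinucleotides each, Grm2 had 16 and Grm8 had 29, beside a median of 6 over all promoters. On these letters, Grm3 and Grm7 were alike.

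Values were deposited as normalized counts, which can be compared between libraries for 1 gene. Estimated depth was 42941006 to 47535113 reads in MDTH, 76705451 to 88633852 in HPF and 41156227 to 48838302 in PFC. The lane tags in the HPF library names were others than in the rest. HPF against the other tissues therefore cannot be told apart from a difference in lane or depth. In MDTH and PFC every high library had a name in 1 style and every low library a name in another. In HPF the letter codes in the names also separated every high library from every low library, and the lane tags differed in part between these groups. An effect of handling and an effect of performance therefore cannot be told apart in any of the tissues. Name numbers 44, 88 and 165 recurred among the high performers of all 3 tissues, so the 3 high groups are not independent of each other. Summed markers of thalamic relay neurons reached 122542 to 263731 normalized counts in MDTH and 9272 to 24555 in the other tissues, so MDTH carried the thalamic markers. High replicate 2 of HPF stood apart from the other HPF libraries in several thalamic markers, with 2984 normalized counts of Tcf7l2 against 151 to 301, and 3954 of Slc17a6 against 132 to 392. Rora, Lef1 and Calb2 were also highest in that library. Prkcd was not, at 3780 against 6071 to 8681 in the low HPF libraries, and neither was Ptpn3, at 6130. The same library also stood apart in choroid plexus markers, with 151267 normalized counts of Ttr, the transthyretin gene, against 2986 to 7990 in the other HPF libraries. Of the PFC libraries, high replicate 1 and low replicates 2 and 3 held 137823, 116924 and 68839 of Ttr, against 1553 to 3875 in the other 3. The fit of all libraries was therefore repeated on the 14 libraries below 10000 of Ttr, a choice made after these values were seen, which leaves 1 low library in PFC that is taken to vary like the rest.

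Grm4 and Grm7 were highest in MDTH, Grm5 and Grm2 in HPF, and Grm3 and Grm8 in PFC, by the mean over the 6 libraries of a tissue. Every gene differed between at least a pair of tissues, and the largest contrasts were those of Grm4 and Grm8. The plot of normalized counts by library shows these levels.

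**Figure D1:**
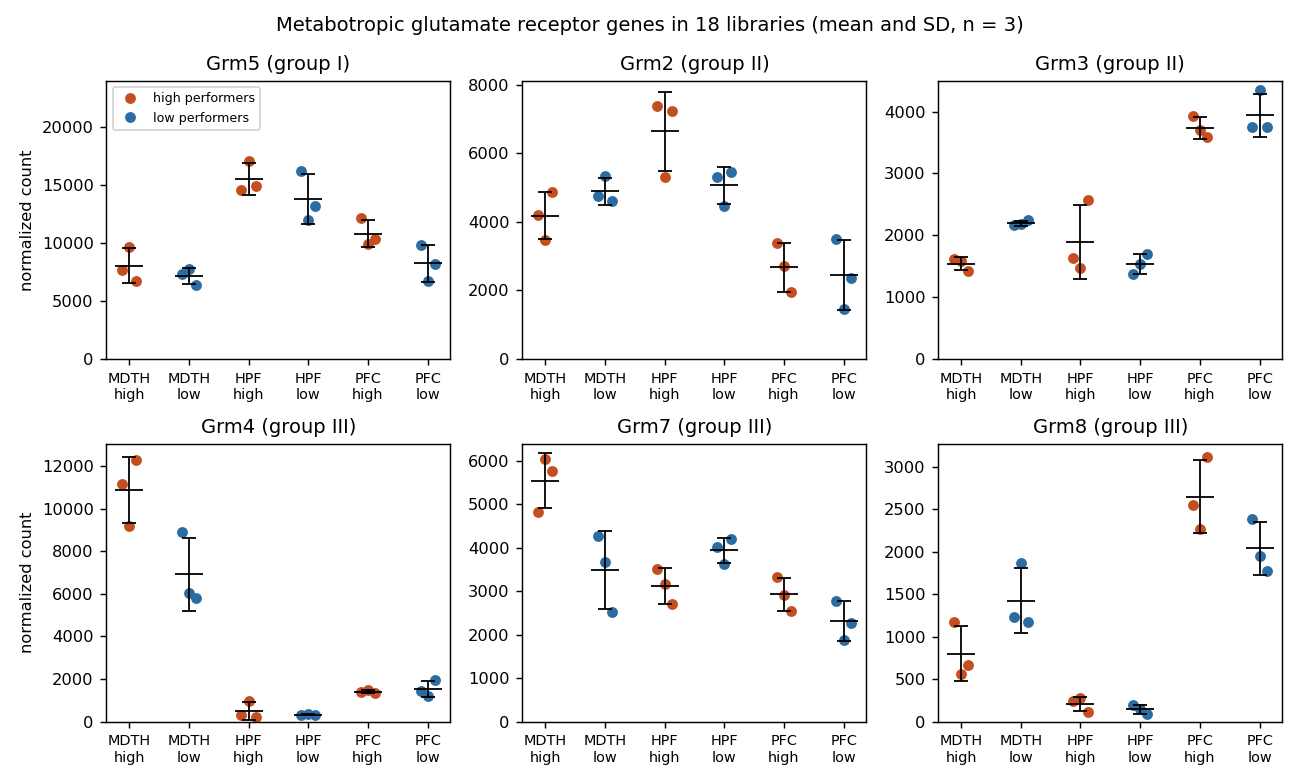
Normalized counts of the 6 receptor genes in each of the 18 libraries, 1 panel per gene, by tissue and performance group; points are libraries, long horizontal lines are group means and error bars are SD over 3 libraries. Grm4 was at 5813 to 12263 in MDTH and at 238 to 979 in HPF, and Grm8 was highest in PFC.

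Grm4, a presynaptic group III receptor, set MDTH apart. It had 11152, 9187 and 12263 normalized counts in high performers of MDTH and 8883, 6033 and 5813 in low performers. HPF libraries held 295, 979 and 238 in high and 325, 348 and 332 in low performers, and PFC libraries held 1398, 1480 and 1366 in high and 1433, 1208 and 1966 in low performers. The 3 tissues did not overlap, and the 979 belongs to the HPF library with thalamic markers, whose part in the HPF value was not tested. Over both performance groups the MDTH level of Grm4 exceeded that of PFC 5.86-fold (log2 difference 2.55, SE 0.26, limma adjusted p = 8.28e-07) and that of HPF 23.0-fold (log2 difference 4.53, SE 0.26, limma adjusted p = 7.22e-10). In HPF it was 3.93-fold lower than in PFC (limma adjusted p = 1.47e-05). Libraries that share a name number gave MDTH to PFC ratios between 6.20 and 8.98 in 4 of 4 pairs. These were numbers 44, 88 and 165 of high performers and only number 130 of low performers. By group means the ratio was 7.68 in high and 4.50 in low performers.

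Grm8, another presynaptic group III gene, was highest in PFC and lowest in HPF. It stood at 1179, 567 and 662 normalized counts in high performers of MDTH and at 1235, 1872 and 1173 in low performers. The HPF libraries had 239, 281 and 118 in high and 197, 150 and 94.9 in low performers. In PFC it reached 2555, 2272 and 3121 in high and 2388, 1954 and 1780 in low performers. HPF was the lowest tissue with no overlap, 13.7-fold below PFC (log2 difference -3.77, SE 0.24, limma adjusted p = 7.52e-09). MDTH was 6.12-fold above HPF (limma adjusted p = 1.60e-07) and 2.24-fold below PFC (log2 difference -1.16, limma adjusted p = 0.00101), with overlap in the second case through 1 low MDTH library.

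Grm7, which encodes the active-zone receptor, spanned a narrower range. In MDTH its values were 4825, 6041 and 5760 normalized counts in high performers and 4274, 3679 and 2517 in low performers. HPF gave 3515, 3175 and 2699 in high and 4009, 3630 and 4193 in low performers, and PFC gave 3322, 2916 and 2543 in high and 2786, 1887 and 2279 in low performers. High performers of MDTH were above all other libraries. Grm7 in MDTH exceeded Grm7 in PFC 1.68-fold (limma adjusted p = 0.000191) and was 1.36-fold higher in HPF than in PFC (limma adjusted p = 0.0106, and 0.133 in the 14 libraries low in Ttr). The difference of 0.31 on the log2 scale between MDTH and HPF sat at the threshold (SE 0.13, limma adjusted p = 0.0494, and 0.0596 in the 14 libraries low in Ttr) and passed in only 5 of the 18 fits that left out 1 library. It was lost without low replicate 1 of MDTH (limma adjusted p = 0.138) and without high replicate 3 of HPF (limma adjusted p = 0.119). The other 11 losses, at adjusted p between 0.0501 and 0.104, came without high replicates 2 or 3 or low replicate 2 of MDTH, high replicate 2 or any low replicate of HPF, or any high replicate or low replicate 3 of PFC. An antisense gene, Gm20387, overlaps exons of Grm7 and was listed at 36.6 to 185, and since use of strand in counting is not given, reads of that pair cannot be told apart.

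Of the group II genes, Grm2 was low in PFC and Grm3 was high there. Grm2 ran from 3485 to 5348 normalized counts in MDTH (median 4674), from 4452 to 7365 in HPF (median 5382) and from 1458 to 3512 in PFC (median 2543). It was 2.35-fold higher in HPF than in PFC (limma adjusted p = 4.54e-05) and in MDTH exceeded the PFC level 1.84-fold (limma adjusted p = 0.00102). Between MDTH and HPF its log2 difference of -0.36 did not pass (95% interval -0.74 to 0.03, limma adjusted p = 0.106), and it passed without low replicate 2 of PFC (0.0413) and in the 14 libraries low in Ttr (0.00471). Grm3 ran from 1419 to 2243 in MDTH (median 1887), from 1371 to 2572 in HPF (median 1581) and from 3586 to 4342 in PFC (median 3744). All MDTH and HPF libraries lay below all PFC libraries, 2.09-fold lower in MDTH and 2.29-fold lower in HPF (limma adjusted p = 9.11e-07 and 3.20e-07). For MDTH against HPF the log2 difference of Grm3 was 0.13 (95% interval -0.10 to 0.37, limma adjusted p = 0.308, and 0.00535 without high replicate 3 of HPF).

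Grm5, the group I member, was highest in HPF. It ran from 6400 to 9701 normalized counts in MDTH (median 7517), from 11990 to 17083 in HPF (median 14732) and from 6732 to 12134 in PFC (median 9900). It was 1.93-fold lower in MDTH than in HPF, with no overlap (log2 difference -0.95, SE 0.11, limma adjusted p = 2.07e-06), and 1.55-fold higher in HPF than in PFC (limma adjusted p = 0.000201). MDTH was 1.24-fold below PFC (log2 difference -0.31, limma adjusted p = 0.0315). That call was lost at adjusted p between 0.0547 and 0.0864 without any 1 of 6 libraries, namely high replicates 1 and 3 and low replicate 3 of MDTH, high replicate 1 of PFC and low replicates 1 and 3 of PFC.

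Counted over the genes, all 6 passed between MDTH and PFC, 3 higher and 3 lower, in a comparison where 40.7% of 18254 genes passed, 20.3% higher and 20.4% lower. All 6 passed between HPF and PFC, 3 higher and 3 lower, beside 45.5% of all genes, 21.8% higher and 23.7% lower. Between MDTH and HPF 4 passed, 3 higher and 1 lower, beside 58.1% of all genes, 29.1% higher and 29.0% lower. The groups did not overlap for 2 of the 6 between MDTH and PFC, 3 between MDTH and HPF and 4 between HPF and PFC, against 17.3%, 31.0% and 21.6% of all genes. In bulk tissue, fewer cells of a type and less RNA per cell cannot be told apart, which holds for every difference given here.

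Divided by the length of each gene's merged exons, the normalized counts gave an order of the 6 genes within each group. In high performers of MDTH, Grm4 led with 1818 ± 261 normalized counts per kilobase (SD, n = 3), apart from all others. Grm7 at 942 ± 108, Grm2 at 855 ± 142 and Grm5 at 786 ± 147 overlapped in turn, and Grm3 at 506 ± 34.9 and Grm8 at 81.1 ± 33.3 followed without overlap. In low performers of MDTH, Grm4 at 1156 ± 287 overlapped Grm2 at 1001 ± 80.7, and Grm7 came after Grm3 and Grm5 at 593 ± 152. Grm8 was last in both groups.

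HPF was led by Grm5 and Grm2 in both performance groups. Grm5 had 1514 ± 133 normalized counts per kilobase in high performers of HPF and 1349 ± 214 in low performers (SD, n = 3 each), and Grm2 had 1357 ± 235 in high and 1036 ± 110 in low performers. Grm4 and Grm8 were the lowest 2 there, at 84.3 ± 69.0 and 21.5 ± 8.51 in high performers. PFC was led by Grm3, at 1226 ± 56.6 in high and 1293 ± 113 in low performers, followed by Grm5 at 1055 ± 113 in high and 805 ± 152 in low performers. By the means, each tissue had another leading receptor gene per length, and these orders rest on merged exon lengths, not on the isoforms present.

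**Figure D2:**
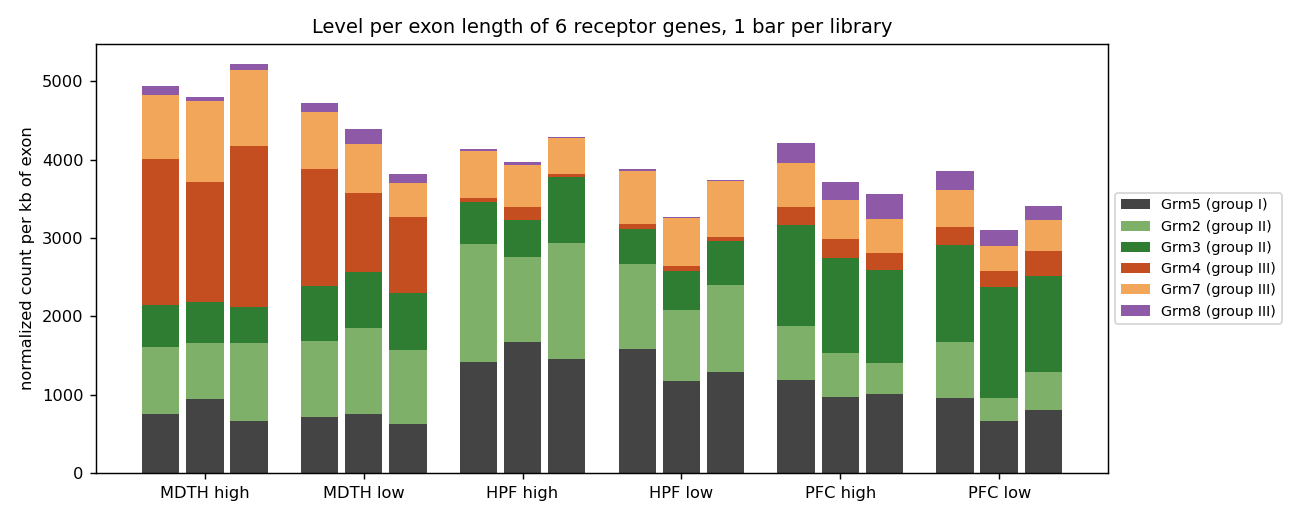
Normalized counts per kilobase of merged exons, stacked for the 6 receptor genes, with 1 bar per library and 3 bars per group. The Grm4 segment is widest in MDTH, with a mean of 1818 in high and 1156 in low performers, and is thin in HPF, and bar heights are the summed levels, 4802 to 5217 in high and 3820 to 4728 in low performers of MDTH.

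The sum of the 6 genes per kilobase was 4944, 4802 and 5217 in high performers of MDTH and 4728, 4388 and 3820 in low performers. In HPF it was 4132, 3966 and 4287 in high and 3876, 3273 and 3739 in low performers, and in PFC it was 4217, 3712 and 3561 in high and 3860, 3099 and 3407 in low performers. The high and low groups did not overlap in MDTH or HPF and did overlap in PFC. Of all single genes, 44.2% in MDTH and 20.0% in HPF did not overlap either, and the sum was not tested. Grm4 made up 36.4% ± 3.85 of that sum in high performers of MDTH and 26.6% ± 4.34 in low performers (SD, n = 3 each). Its share was 2.08% ± 1.78 and 1.56% ± 0.198 in high and low performers of HPF, and 6.21% ± 0.589 and 7.46% ± 1.91 in high and low performers of PFC.

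The comparison of high with low performers asked whether receptor expression went along with short-term memory. In MDTH, Grm4 and Grm7 were higher and Grm3 was lower in high performers, and Grm2, Grm5 and Grm8 did not pass. These 3 calls of 6 stand in a comparison where 25.0% of 17861 genes passed, 12.5% in each direction. The groups did not overlap for 3 of the 6, against 44.2% of all genes, which is near the background.

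Grm3 in MDTH was at 1613, 1592 and 1419 normalized counts in high performers and at 2160, 2180 and 2243 in low performers. The low libraries lay within a narrow band above every high library. The log2 difference was -0.51 (SE 0.09, 95% interval -0.71 to -0.31, limma adjusted p = 0.00873), a 1.43-fold lower level in high performers, and Grm3 passed in all 6 fits that left out 1 library. Of 6 astrocyte markers 2, Aqp4 and Gfap, were lower in high performers of MDTH. The others did not pass, with log2 differences of -0.24 for Gja1, 0.044 for Aldh1l1, 0.132 for Slc1a3 and 0.065 for S100b. The summed astrocyte markers were at 49642 to 69168 in high and 65634 to 71391 in low performers, with no marker near 0, and their part in the result was not tested.

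The higher Grm4 level of high performers in MDTH, 10867 ± 1558 normalized counts against 6910 ± 1712 in low performers (SD, n = 3 each), amounted to 1.59-fold. The lowest high library, at 9187, was just above the highest low library, at 8883. The log2 difference was 0.67 (SE 0.18, 95% interval 0.24 to 1.10, limma adjusted p = 0.0366), and it was lost without high replicate 1 (0.0754), high replicate 3 (0.105), low replicate 2 (0.110) or low replicate 3 (0.118). With all 18 libraries in 1 fit its adjusted p was 0.187.

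Grm7 was 1.62-fold higher in high performers of MDTH, at 5542 ± 637 normalized counts against 3490 ± 894 in low performers (SD, n = 3 each). The groups did not overlap, and low replicate 3 was the lowest library. The log2 difference of 0.69 (SE 0.20, 95% interval 0.23 to 1.16, limma adjusted p = 0.0404) did not pass without high replicate 2 (0.118), high replicate 3 (0.105), low replicate 2 (0.0798) or low replicate 3 (0.0695).

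Grm8 had a log2 difference of -0.87 in MDTH that did not pass (SE 0.30, 95% interval -1.58 to -0.16, limma adjusted p = 0.0736). High replicate 1, at 1179, overlapped the low libraries, and without it the difference was -1.18 and passed (limma adjusted p = 0.0153). Grm2 differed by -0.24 (95% interval -0.55 to 0.07, limma adjusted p = 0.222) and Grm5 by 0.16 (95% interval -0.18 to 0.50, limma adjusted p = 0.444), both with overlapping groups. The plot of performance differences sets these values beside those of the other tissues.

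**Figure D3:**
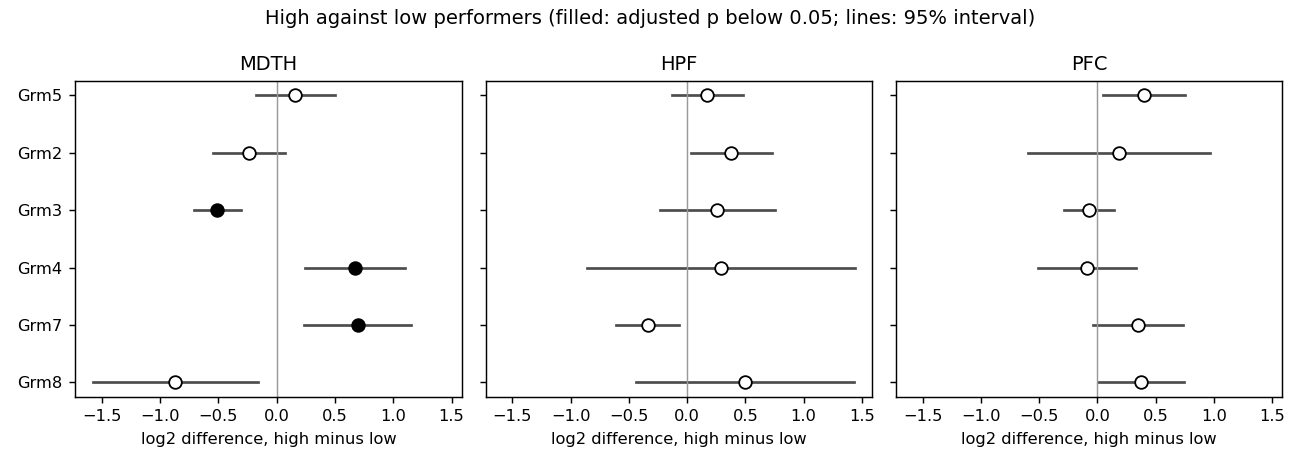
Log2 difference of high minus low performers for each receptor gene in each tissue; points are limma estimates, horizontal lines are 95% intervals, and filled points passed at an adjusted p below 0.05. In MDTH Grm4 (0.67) and Grm7 (0.69) lie above 0 and Grm3 (-0.51) lies below, and no point passed in HPF or PFC.

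Markers of several cell types differed between the MDTH groups beside these genes. Of 7 thalamic relay markers 4 were higher and 1, Tcf7l2, was lower, and their sum was 226697 to 263731 in high and 122542 to 165633 in low performers. Of 6 habenular markers 2, Pou4f1 and Nwd2, were lower, with sums of 1118 to 1682 in high and 3070 to 26240 in low performers. Pou4f1, a defining factor of habenular neurons, was at 10.4 to 54.2 in high and 169 to 3105 in low performers. Of 6 inhibitory neuron markers 3 were lower, with sums of 2133 to 2694 in high and 5683 to 24183 in low performers. Of 5 tested markers of hippocampal principal neurons 1, Iyd, was higher (log2 difference 2.12) and 2, C1ql2 (-1.53) and Fibcd1 (-2.60), were lower. Rgs9, 1 of 5 striatal markers, and Mbp, 1 of 5 oligodendrocyte markers, were lower, and Cx3cr1, 1 of 4 microglial markers, was higher. Summed cortical excitatory markers were at 11236 to 18780 in high and 4056 to 9497 in low performers, with 0 of 6 passing. The part of all these markers in the receptor differences was not tested.

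In HPF no receptor gene passed by limma, where 0.0166% of 18082 genes did. An unadjusted limma p below 0.05 was reached by 2 of 6, and the share of all genes at that threshold is not given here. Grm7 averaged 3129 ± 410 normalized counts in high performers, against 3944 ± 287 in low performers (SD, n = 3 each), with no overlap (log2 difference -0.34, SE 0.12, 95% interval -0.61 to -0.07, limma adjusted p = 0.303). Non-overlap in 1 of 6 genes compares with 20.0% of all genes. Grm2 was at 7365, 5316 and 7240 in high and at 5310, 4452 and 5449 in low performers (log2 difference 0.38, limma adjusted p = 0.347), with overlap. Cell type markers also differed between the HPF groups. Summed markers of hippocampal principal neurons were at 35087 to 50375 normalized counts in high and 20294 to 20790 in low performers, and 1 of the 6, Iyd, passed and was lower (log2 difference -2.75, limma adjusted p = 0.0181). Summed markers of cortical excitatory neurons were at 71322 to 86929 in high and 104680 to 126397 in low performers, with 0 of 6 passing. Neither sum overlapped between the groups, and the part of these cell types in the HPF values and in the interactions with HPF was not tested.

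The Grm4 value in HPF depended on 1 library. Its log2 difference of 0.29 (95% interval -0.86 to 1.44, limma adjusted p = 0.834) turned to -0.34 without high replicate 2, the library with thalamic markers. Grm8 had the second widest interval, at 0.50 (95% interval -0.44 to 1.44, limma adjusted p = 0.624), with normalized counts of 94.9 to 281 in that tissue. Grm3 differed by 0.26 (95% interval -0.23 to 0.76) and Grm5 by 0.17 (95% interval -0.13 to 0.48) in HPF, and neither passed.

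PFC had 0 receptor genes that passed by limma, beside 5.85% of 17991 genes. An unadjusted limma p below 0.05 was reached by 2 of 6 there, again without the share of all genes at that threshold. Grm5 was at 12134, 9959 and 10352 normalized counts in high performers and at 9841, 6732 and 8173 in low performers. These groups did not overlap, as for 1 of 6 receptor genes and 30.9% of all genes, and the log2 difference was 0.40 (SE 0.15, 95% interval 0.05 to 0.75, limma adjusted p = 0.158). Grm8 followed at 0.37 (95% interval 0.01 to 0.74, limma adjusted p = 0.199) and Grm7 at 0.35 (95% interval -0.04 to 0.73, limma adjusted p = 0.248), both with overlapping groups. Grm2 differed by 0.18 (95% interval -0.60 to 0.97), Grm4 by -0.09 (95% interval -0.51 to 0.33) and Grm3 by -0.07 (95% interval -0.29 to 0.14).

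An interaction term then compared the performance differences of a pair of tissues with each other. For Grm7 it was 1.03 on the log2 scale in MDTH relative to HPF (SE 0.26, 95% interval 0.49 to 1.58, limma adjusted p = 0.011), and it passed in all 18 fits that left out 1 library. Among high performers Grm7 was 1.77-fold higher in MDTH than in HPF with no overlap, and among low performers it was 1.13-fold lower with overlap. Libraries of high performers that share name numbers 44, 88 and 165 gave MDTH to HPF ratios of 1.52, 2.24 and 1.64, and the low performer pair, number 163, gave 0.918.

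Grm3 had the opposite interaction, -0.77 between MDTH and HPF (SE 0.22, 95% interval -1.23 to -0.31, limma adjusted p = 0.0213). It was lost without high replicate 3 of MDTH (0.0520) or low replicate 1 of HPF (0.0569). Among low performers, Grm3 was 1.43-fold higher in MDTH than in HPF with no overlap, while high performers overlapped. Grm8 did not pass at -1.37 (SE 0.48, limma adjusted p = 0.0588), but it did with libraries that share a name number treated as a block (-1.33, limma adjusted p = 0.0199). It also passed without high replicate 1 of MDTH (0.0202), high replicate 3 of HPF (0.0163) or low replicate 1 of HPF (0.0406). The interaction of Grm4 was 0.38 (limma adjusted p = 0.662), and 1.01 without high replicate 2 of HPF (limma adjusted p = 0.0196). In the 14 libraries low in Ttr the interactions of Grm7 and Grm3 with HPF passed at 1.05 and -0.93, and those of Grm4 (1.01, limma adjusted p = 0.0161) and Grm2 (-0.77, limma adjusted p = 0.0299) passed as well.

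Thus 2 of 6 genes passed between MDTH and HPF, beside 19.0% of all genes. Between MDTH and PFC 1 gene, Grm8, had an unadjusted limma p below 0.05 (-1.25, SE 0.48, limma adjusted p = 0.196). Between HPF and PFC 1 gene, Grm7, did (-0.69, SE 0.26, limma adjusted p = 0.110). The share of all genes at that unadjusted threshold is not given here. By the adjusted p, 0 of 6 passed between MDTH and PFC, beside 3.41% of all genes, and 0 of 6 between HPF and PFC, beside 9.14%. A higher Grm7 or Grm4 level in high performers was therefore not shown to be particular to MDTH when set against PFC.

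Genes that supply or act with the receptors were read from 5 lists. In MDTH the median log2 difference over all genes was -0.0031, and 12.5% of all genes were higher and 12.5% lower, so each list is to be read against 25.0% of genes that passed. Of 12 genes that make, pack or clear glutamate and the group II agonist N-acetylaspartylglutamate (NAAG), 4 were higher and 1 was lower in high performers (median 0.39). Slc17a6, which packs glutamate into vesicles, differed by 0.60 (limma adjusted p = 0.00547), and by the same amount without a call in the fit of all 18 libraries (limma adjusted p = 0.512). Slc17a6 is also 1 of the 4 thalamic relay markers that were higher, and the relay sum given above moved with it, whose part in the result was not tested.

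The Gq list, downstream of group I receptors, had 6 genes higher and 1 lower of 10 (median 0.73). Plcb4, a phospholipase C of the thalamus, averaged 39580 ± 6768 normalized counts in high performers of MDTH, against 16478 ± 3237 in low performers (SD, n = 3 each, log2 difference 1.27, limma adjusted p = 0.0047). The channel gene Trpc1 was higher by 0.95 (limma adjusted p = 0.00564). The count of 7 was 3 without high replicate 2, low replicate 2 or low replicate 3, and 4 without high replicate 1 or high replicate 3 or with quantile normalization. The Gi/o list, downstream of groups II and III, had 4 higher and 2 lower of 10 (median 0.26), with the subunit genes Gnai1 at 0.61 (limma adjusted p = 0.00494) and Gnai2 at -0.76 (limma adjusted p = 0.0072). Its count of 6 was 3 without high replicate 2, high replicate 3, low replicate 2 or low replicate 3.

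Among 16 binding partners, 5 were higher and 2 lower in high performers of MDTH (median 0.34), and 3 in all passed without high replicate 2 or low replicate 2 and 2 without low replicate 3. Elfn1, a postsynaptic protein that binds group III receptors across the synapse, was at 211, 64.2 and 131 normalized counts in high performers and at 1289, 3513 and 5001 in low performers. The groups were far apart, with a log2 difference of -4.53 (SE 0.58, limma adjusted p = 0.00452). Elfn1 was lower together with the habenular and inhibitory markers given above, whose part in the result was not tested. Its paralog Elfn2, named after its value was seen, differed by -0.12 (limma adjusted p = 0.373). Siah1a, a ubiquitin ligase that binds group I receptors, was higher by 0.72 (limma adjusted p = 0.00469). Of 9 receptor regulators 1 was higher and 2 were lower (median 0.09, and 5 in all without low replicate 1 and 6 in the fit of all 18 libraries), a share near the 25.0% of all genes, with Rgs2, which speeds the shutdown of Gq, at -1.27 (limma adjusted p = 0.00339) and Arrb2, a beta-arrestin, at -0.75 (limma adjusted p = 0.00477).

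**Figure D4:**
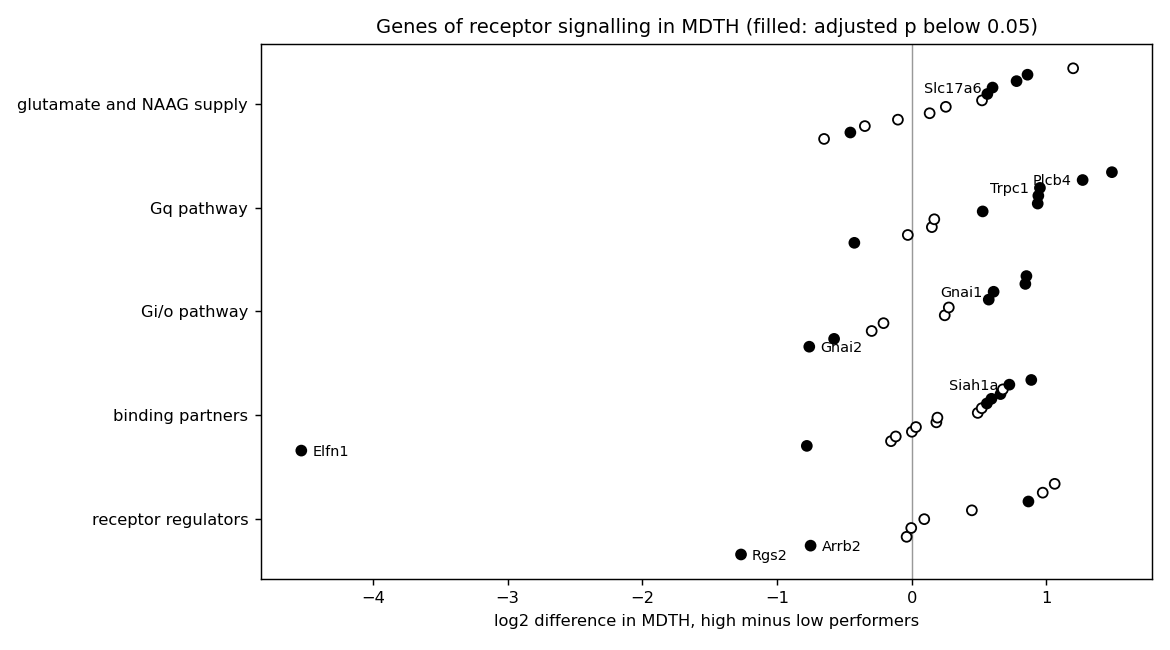
Log2 difference of high minus low performers in MDTH for each tested gene of the 5 lists, 1 row per list; filled points passed at a limma adjusted p below 0.05, open points did not, and the vertical line marks 0. Elfn1 at -4.53 lies farthest to the left, and 6 of the 10 Gq genes were higher and passed.

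Outside MDTH few of these genes passed, and in PFC 3.22% of all genes were higher and 2.63% lower. In the Gi/o list 2 of 10 were lower in PFC, Gnao1 at -0.57 (limma adjusted p = 0.0173) and Cacna1b at -0.47 (limma adjusted p = 0.0467). Gnao1 was lost without any of the 3 high replicates or low replicate 3, at adjusted p between 0.0521 and 0.0877, and Cacna1b passed in 1 of the 6 fits that left out 1 library. The count of 2 was 1 without the filter or with equal library medians, and 4 in the fit of all 18 libraries. Among the markers, 2 of 4 microglial genes, P2ry12 and C1qa, were lower in PFC, with sums of 8818 to 10606 in high and 11141 to 13965 in low performers, which do not overlap. The relay marker Lef1, 1 of 6 cortical excitatory markers, Tbr1, and 1 of 3 endothelial markers, Flt1, were also lower in PFC. Their part in the PFC results was not tested. None of the 10 Gq genes, 16 partners or 9 regulators passed in PFC when it was fitted alone, against 2, 1 and 1 in the fit of all 18 libraries and 2 partners without low replicate 2, and none of the genes of any list passed in HPF, by limma over all genes.

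The gene whose profile over the 18 libraries lay closest to that of Grm4, among 13334 genes, was Plcb4, with a root mean square difference of 0.25 on the centred log2 scale, followed by Prkg2, a cGMP-dependent kinase gene, at 0.28. Grm4 itself varied by 1.91 around its mean on the same scale. For Grm8 the closest were Cobl and Ldb2, at 0.41 and 0.42, against 1.65 for Grm8 around its mean. The closest to Grm3 were Xylt1 and Ssbp3, at 0.19 and 0.22, and those to Grm2 were Nr2f6 and Ccdc85a, at 0.27 and 0.29. Zcchc14 and Prickle2, at 0.18 each, lay closest to Grm5, and Sac3d1, at 0.18, lay closest to Grm7. These profiles share their libraries, depth and tissues, so the likeness is a description. Xylt1 shared with Grm3 the highest level in PFC, and in MDTH it averaged 1841 ± 181 normalized counts in high performers, against 2677 ± 162 in low performers (SD, n = 3 each).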

How the data were processed

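Per the labels' protocols, the 18 RNA libraries were made with Illumina's TruSeq kit for stranded mRNA. The authors deposited 1 table of signal values per gene and library, counts divided by normalization factors. The submitters' processing notes list the tools STAR, Salmon and DESeq2 and give no version or role for any; build, annotation and use of strand are not given in the sources used here. Of the gene IDs, 48058 were found in GENCODE M21 (GRCm38), which gave coordinates and exon lengths. Whole reads were recovered for only 34.1% to 74.4% of low values, within 0.02 of a read, so count models were not run, and depth was estimated from the worth of 1 read. Grm2 lies at chr9:106643095-106656082 (minus strand), Grm3 at chr5:9485541-9725170 (minus), Grm4 at chr17:27422387-27521403 (minus), Grm5 at chr7:87584168-88134907 (plus), Grm7 at chr6:110645581-111567230 (plus) and Grm8 at chr6:27275119-28135178 (minus), all protein coding.

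Limma 3.58.1 in R 4.3.3 was fitted to log2(normalized count + 1) for genes with a mean of at least 10, with a mean-variance trend, two-sided, with Benjamini-Hochberg adjustment over all genes and a threshold of 0.05. The log scale understates changes of low genes. Each tissue was fitted alone for high against low performers, 3 libraries each, and 1 fit of all 18 libraries with 6 group means gave tissue differences and interactions. Fits were tested on simulated data with independent libraries and equal dispersion for all genes. These held no shared name numbers or name styles, so they do not measure errors from those features. Python 3.11.15, pandas 2.3.3, numpy 2.4.6 and matplotlib 3.10.9 prepared tables and figures. Alternatives were a pseudocount of 10, no filter, equal library medians, quantile normalization, blocks, the fit of all 18 libraries, leaving out each library and, added after seeing the data, leaving out 4 libraries with choroid plexus markers.

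Libraries of different tissues that share a number in their names deviated together (correlation 0.346 to 0.611 in 11 pairs), so these numbers pair libraries across tissues, although the labels do not say that they mark a mouse. No label says that the libraries of a group came from separate animals, so p-values measure the spread between libraries.

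The members and gene lists were chosen with earlier results of these data known. The rule named all 6 receptor genes, the 2 genes of each list with the smallest p per tissue, of which those in HPF are not printed, and the 2 genes of most similar profile for each receptor, with a mean of at least 50 normalized counts and no predicted-gene or clone name. A few genes named by this rule are left out here.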

Additional observations from a re-analysis of the deposited data

Results flagged for a closer look

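The performance differences of 2 receptor genes differed between tissues by a test of the difference itself. That of Grm7 was higher in MDTH than in HPF by 1.03 on the log2 scale (limma adjusted p = 0.011), with a log2 difference of high minus low performers of 0.69 in MDTH and -0.34 in HPF. That of Grm3 differed by -0.77 (limma adjusted p = 0.0213), with -0.51 in MDTH and 0.26 in HPF. All 3 high libraries of each tissue share their name numbers across the 2 tissues. With libraries that share a name number as a block the values were 1.04 for Grm7 and -0.80 for Grm3, and both passed.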

How the results depend on the processing

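The number of all genes that passed depended on the fit and on single libraries. In PFC it was 1053, but 0 with the replicate block and 2529 with all 18 libraries in the fit, and 7 to 1306 with 1 library left out. In MDTH it was 4470, but 2425 with the replicate block and 1839 to 4223 with 1 library left out. In HPF it was 3, but 11 without the filter, 7 with equal library medians, 7 with quantile normalization, 0 with the replicate block, 265 with all 18 libraries and 0 to 15 with 1 library left out. Interactions of all genes passed 623 times between MDTH and PFC, 1034 times with name numbers as a block and 278 to 1004 times with 1 library left out, and between HPF and PFC 1669 times and 896 to 1818 times with 1 library left out. In the 14 libraries low in Ttr they passed 58 times between MDTH and PFC and 400 times between HPF and PFC. The 3 receptor calls in MDTH became 1 with the replicate block, where Grm4 (adjusted p = 0.0518) and Grm7 (0.0768) missed the threshold, and 1 to 3 with 1 library left out. The 2 receptor interactions between MDTH and HPF ran from 1 to 3 with 1 library left out and were 4 in the 14 libraries. With the replicate block, the list counts in MDTH became 4 for Gq, 3 for Gi/o and 3 for binding partners, and the Gi/o count in PFC became 0.

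Between MDTH and HPF the Grm7 difference missed the threshold without the filter (0.0708), with equal medians (0.0503) and with quantile normalization (0.144), under which Grm2 passed (0.0436). The interaction of Grm5 between MDTH and HPF was -0.01 and turned to 0.082 with equal medians and 0.032 with name numbers as a block, and ran from -0.16 to 0.11 with 1 library left out. That of Grm8 between HPF and PFC was 0.12 and turned to -0.008 with quantile normalization (-0.16 to 0.50 with 1 library left out). Leaving out 1 library also turned the sign of Grm2 in PFC (-0.14 to 0.49), Grm4 in PFC (-0.25 to 0.10) and in HPF (-0.34 to 0.68), the Grm4 interactions between MDTH and HPF (-0.0089 to 1.01) and HPF and PFC (-0.25 to 0.77), and the Grm2 interaction between HPF and PFC (-0.11 to 0.52). In the 14 libraries the sign turned for the interactions between MDTH and PFC of Grm2 (0.37) and Grm5 (0.12), between MDTH and HPF of Grm5 (0.0563) and between HPF and PFC of Grm4 (-0.33) and Grm5 (0.0587). None of these had passed in the fit of all libraries, and the cause was not tested. Of the receptor results under the other settings, 338 kept direction and side of the threshold, 8 lost the call, 6 gained it and 8 changed sign.

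Replicate numbers in the titles do not pair the high and low libraries of 1 tissue, which correlated at -0.127 to 0.0923 (9 pairs). Libraries of 2 tissues with the same replicate number correlated at -0.37 to 0.494 (18 pairs), and some of these also share a name number. With 3 libraries a group, a difference that did not pass is limited by its interval and is not shown to be absent.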
